A study of Mus musculus with 10 samples.

Results

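The 9 genes described here write, copy and remove methylation of cytosine in DNA. They are Dnmt1 and Uhrf1, which copy methylation at replication, Dnmt3a, Dnmt3b and Dnmt3l, which place it on unmethylated DNA, Tet1, Tet2 and Tet3, which oxidise it, and Tdg, which excises the oxidised bases. They were chosen by gene name, and all 9 of 9 were found among the 15686 genes of the stage matrix that the authors deposited and among the 55487 genes of the count tables. Nuclear RNA was sequenced from 5 stages of blood formation from HM-1 mouse embryonic stem cells, a single cell line, in serum culture, with 2 libraries per stage and 10 in all. The stages were undifferentiated ES cells, haemangioblasts (HB) sorted as FLK1+ from embryoid bodies after 3 days, and 3 populations sorted from a blast culture of FLK1+ cells. These were early haemogenic endothelium (HE1, KIT+ TIE2+ CD41-), later haemogenic endothelium (HE2, KIT+ TIE2+ CD41+) and haematopoietic progenitors (HP, KIT+ TIE2- CD41+). The labels number the libraries of a stage as replicates and do not say whether these came from separate cultures, while the study calls such replicates biologically independent in a figure legend, and the tests measure the spread between these libraries.

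DNA methylation of CpG dinucleotides silences transposons, imprinted alleles and germline genes in mouse tissues. DNMT1, brought to newly replicated DNA by UHRF1, restores it on the daughter strand, while DNMT3A and DNMT3B methylate new sites with the inactive relative DNMT3L as a cofactor in pluripotent and germ cells. The TET dioxygenases oxidise 5-methylcytosine in steps, and TDG starts the base excision repair that puts back an unmethylated cytosine. In ES cells TET1 and TET2 are known as the abundant TET enzymes, and loss of DNMT3A or TET2 in blood stem cells is known to disturb their differentiation.

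The data show 4 patterns among these genes. Tet1 fell 10.2-fold and Tet2 fell 2.89-fold from ES to HB, whereas Tet3 rose 2.18-fold at that step and a further 2.69-fold from HB to HE1. Dnmt3l fell 67.3-fold from ES to HB. Dnmt3b fell 2.85-fold from HB to HE1 and rose 3.27-fold from HE1 to HE2, and Uhrf1 changed in the same directions. The rise of Dnmt3b to HE2 did not pass without the second HE1 library (log2 fold change 1.83, adjusted p = 0.0716) or the second HE2 library (0.90, adjusted p = 0.0538) in edgeR's test, and each call of Uhrf1 at these steps was lost without at least 1 of the libraries compared. Dnmt3a passed the test in none of the 6 comparisons.

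Levels are given as CPM, the counts of a gene per 1000000 counts of its library, with library sizes scaled by TMM, a normalization that holds most genes level between libraries. A gene is said to rise, fall or pass where the adjusted p of edgeR's quasi-likelihood test, adjusted over the 22596 genes tested in a comparison, was under 0.05. All 9 genes were among those tested. The libraries held between 24920434 and 58782055 counts, so that 3 counts in a library corresponded to 0.0532 to 0.126 CPM. Among the stage markers, Pou5f1 stood at 549.3 and 520.1 CPM in ES, the mesoderm gene Mesp1 at 74.7 and 78.4 in HB, Cdh5 at 1430.9 and 797.6 in HE1, and Runx1 at 522.7 and 412.0 in HP, each the highest or among the highest of the stages. Other markers did not single out a stage. Kdr, which encodes FLK1, was at 956.6 and 1284.3 CPM in HB and at 1265.0 and 718.2 in HE1. Itga2b, which encodes CD41, was at 227.3 and 127.0 CPM in the CD41- HE1, above the 48.0 and 34.5 of HB and below the 504.9 and 469.1 of HE2, and Kit was no higher in HE1 (146.3 and 73.0) than in ES (163.5 and 172.9). The second HE1 library stood apart in its stage, with 26.3 CPM of Pou5f1 against 2.82 in the first, 11.2 against 0.967 of Zfp42 and 74.2 against 16.0 of the cardiac gene Tnnt2. The 6 ES markers summed to 93.8 CPM in it and to 46.1 in the first. The HE2 libraries differed too, since Cdh5 stood at 862.3 and 412.0 CPM and Runx1 at 295.1 and 519.1. Markers of other cell types moved with the stages as well. The 5 cardiac and smooth muscle markers summed to 18.4 and 22.0 CPM in HB and to 424.2 and 658.3 in HE1, mostly Acta2 at 403.1 and 568.9, and the 4 erythroid markers summed to 476.0 and 228.4 CPM in HE1 and to 4258.7 and 2289.9 in HP. The 4 endoderm markers summed to 0.727 and 0.803 CPM in ES, 190.8 and 190.4 in HB and 162.5 and 140.8 in HE1. In HE2 and HP they summed to at most 58.3. The sums were mostly Gata6 in HB (173.5 and 177.2 CPM), and Sox17 (96.3 and 77.3) with Gata6 (63.6 and 62.7) in HE1. Foxa2 and Afp were at most 2.58 and 0.342 CPM in any library. The 3 neural markers summed to 175.7 and 198.3 CPM in ES, 59.8 and 56.0 in HB and 240.8 and 276.7 in HE1. These sums were mostly Nes, at 240.2 and 274.4 CPM in HE1, while Pax6 and Sox1 were lower in HE1 than in ES. Pax6 went from 5.78 and 5.97 CPM to 0.589 and 0.198, and Sox1 from 3.03 and 3.21 to 0.0 and 2.15. The 3 macrophage markers summed to at most 16.4 CPM in any library. The part of these cell types in the changes of the 9 genes was not tested. These are bulk libraries of sorted cells, in which fewer cells of a type cannot be told apart from less RNA per cell.

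**Figure D1:**
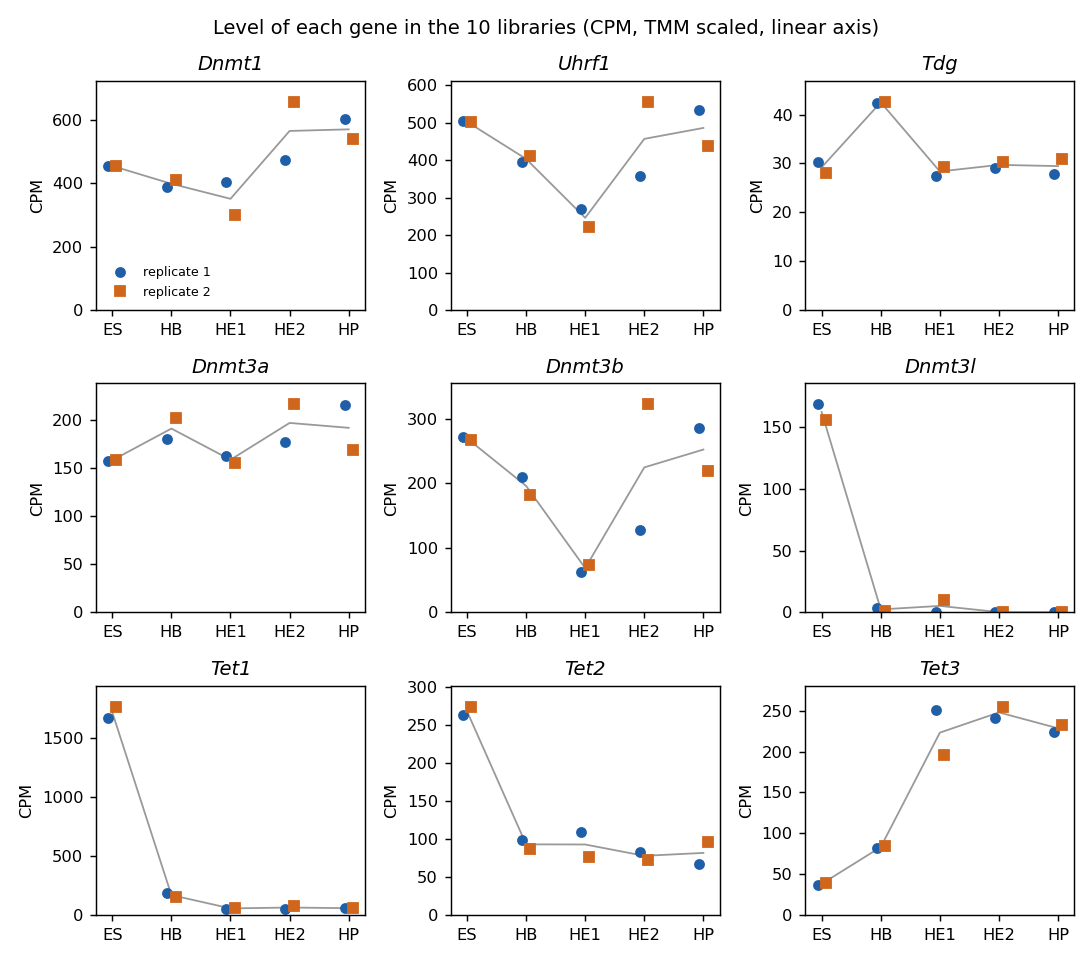
Level of each of the 9 genes in CPM (TMM scaled, linear axes from 0) in both libraries of each stage, with a line through the stage means. Tet1, Tet2 and Dnmt3l were highest in the ES libraries, Tet3 was highest from HE1 on, Tdg was highest in HB, and Dnmt3b and Uhrf1 had their lowest libraries in HE1.

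Among the erasers, Tet1 (chr10:62804570-62908996, minus strand, mm10), which encodes a TET enzyme that is known for binding CpG-rich promoters, gave 1673.6 and 1767.4 CPM in ES. It gave 183.1 and 153.8 CPM in HB. The HE1 libraries held 50.7 and 60.0 CPM, those of HE2 52.1 and 73.2, and those of HP 58.6 and 55.5. The ES libraries lay above all others and the HB libraries above those of HE1, HE2 and HP, whose ranges overlapped. The log2 fold change was -3.35 ± 0.187 (SE, adjusted p = 1.57e-06) from ES to HB and -1.60 ± 0.188 (adjusted p = 0.000226) from HB to HE1. From ES to HP, which shares its ES libraries with the first of these, Tet1 differed by -4.91 ± 0.188 on the log2 scale (adjusted p = 1.56e-07), or 30.2-fold. From HE1 to HE2 and from HE2 to HP its log2 fold changes were 0.18 ± 0.189 and -0.14 ± 0.189, with adjusted p = 0.505 and 1.0.

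Tet2 (chr3:133463679-133545139, minus strand), whose product lacks a CXXC domain of its own and is known as a tumour suppressor in blood, gave 262.0 and 273.4 CPM in ES and 98.5 and 86.9 in HB. In HE1 it gave 109.2 and 75.8 CPM, in HE2 82.9 and 72.3, and in HP 66.5 and 96.4. Only the ES libraries were set apart, and the libraries of the other 4 stages overlapped from each stage to the next. Tet2 fell by 1.53 ± 0.21 on the log2 scale from ES to HB (adjusted p = 0.000301) and by 1.72 ± 0.211 from ES to HP (adjusted p = 8.97e-05). Its log2 fold changes between consecutive stages after HB lay between -0.25 and 0.07, and none passed.

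Tet3 (chr6:83362373-83459084, minus strand), which encodes the TET enzyme known for oxidising the paternal genome of the zygote, ran the other way. The ES libraries held 37.2 and 38.8 CPM and those of HB 81.6 and 84.5. Tet3 then reached 251.0 and 195.3 CPM in HE1, and the libraries of HE2 held 241.0 and 254.8 and those of HP 224.5 and 232.4. The ES, HB and later libraries formed 3 levels that did not overlap, and HE1 overlapped with both HE2 and HP. Tet3 rose by 1.13 ± 0.148 on the log2 scale from ES to HB (adjusted p = 0.000207) and by 1.43 ± 0.147 from HB to HE1 (adjusted p = 0.000105). From ES to HP it rose by 2.59 ± 0.148 (adjusted p = 7.88e-07), or 6.01-fold. The calls of Tet1 and Tet3 in these 3 comparisons and those of Tet2 from ES to HB and from ES to HP held in every alternative fit that was run.

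The TET genes can be compared with each other only per length of exon, which was 15457 bases for Tet1, 16870 for Tet2 and 16695 for Tet3. On that scale the summed level of the 3 genes was 129.4 ± 4.88 CPM per kb (SD, n = 2) in ES and 21.4 ± 1.7 in HB. It was 22.5 ± 3.32 in HE1, 23.5 ± 1.13 in HE2 and 22.2 ± 1.41 in HP. The sum was lower in HB than in ES, and its means in the 4 later stages lay between 21.4 and 23.5 CPM per kb, while its makeup went on changing. Tet1 held 86.0% ± 0.141 of the sum in ES, 50.9% ± 2.26 in HB and 16.2% ± 4.31 in HE1. Tet3 held 1.76% ± 0.0141 in ES, 23.4% ± 2.47 in HB and 59.5% ± 1.63 in HE1. Tet2 held 12.2% ± 0.0707 in ES and means of 19.6% to 25.8% in the 4 later stages. In HE2 and HP the shares of Tet3 were 63.1% ± 0.495 and 61.7% ± 2.55, and the order of Tet3 above Tet2 above Tet1 held in the stage means of HE1, HE2 and HP. In HE2 and HP the mean shares of Tet2 and Tet1 differed by less than their summed SD.

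**Figure D2:**
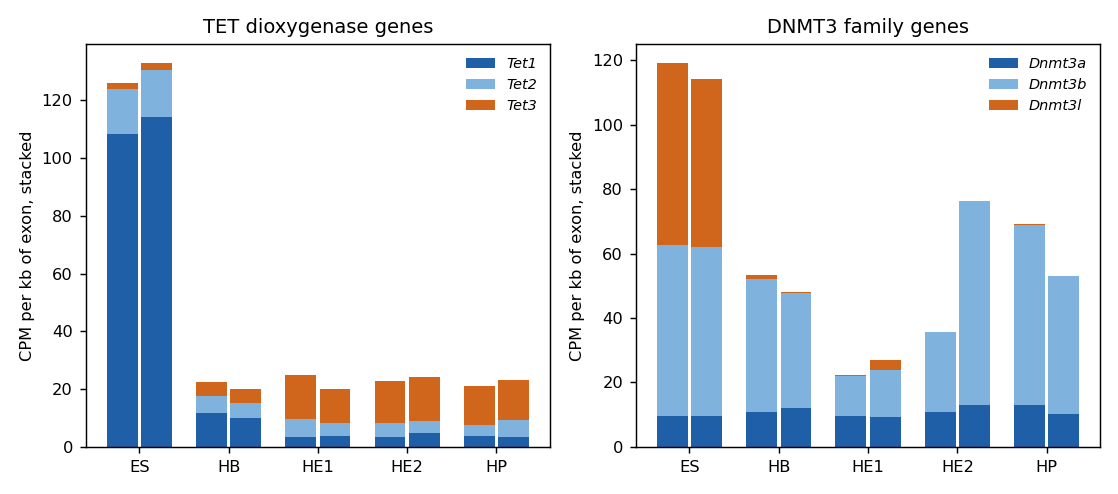
Level per kb of exon (CPM per kb, stacked bars from 0, 1 bar per library, 2 per stage) of the TET genes on the left and of the DNMT3 family genes on the right. Tet1 makes up most of the ES bars and Tet3 most of the HE1, HE2 and HP bars, and the Dnmt3l segment is large in the ES bars only.

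Start site sequences of Tet1 and Tet3, the pair of genes that moved in opposite directions, are given as RefSeq windows of GRCm38.p6, from 250 bases before the start site to 50 bases after it, on the strand of the gene. Capitals mark CpG, the dinucleotide that these enzymes act on. The Tet1 window lies at chr10:62887275-62887574 (minus strand) and the Tet3 window at chr6:83441629-83441928 (minus strand). Both RefSeq start sites, at 62887324 for Tet1 and 83441678 for Tet3, lie inside the gene spans of the count annotation, whose 5′ ends are at 62908996 and 83459084, so the windows are not the starts of those spans.
Tet1: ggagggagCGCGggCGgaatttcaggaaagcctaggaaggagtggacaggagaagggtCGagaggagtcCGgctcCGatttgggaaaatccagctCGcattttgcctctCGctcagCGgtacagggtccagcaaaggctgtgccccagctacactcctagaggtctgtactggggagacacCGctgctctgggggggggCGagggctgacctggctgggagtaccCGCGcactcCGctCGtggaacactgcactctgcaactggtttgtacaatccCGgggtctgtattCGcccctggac
Tet3: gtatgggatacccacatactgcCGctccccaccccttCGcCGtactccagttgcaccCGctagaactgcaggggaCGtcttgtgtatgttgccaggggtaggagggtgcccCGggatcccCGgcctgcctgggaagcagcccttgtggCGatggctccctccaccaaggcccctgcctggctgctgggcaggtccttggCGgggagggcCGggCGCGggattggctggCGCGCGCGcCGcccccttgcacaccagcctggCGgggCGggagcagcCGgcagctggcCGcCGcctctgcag
The Tet1 window held 17 CpG and the Tet3 window 22, against a median of 7 over the 32851 windows of the table. Of all windows, 68.6% held fewer CpG than that of Tet1 and 76.9% fewer than that of Tet3. The Tet2 window was the richest of the 9 genes with 57 CpG, more than in 99.8% of all windows.

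Of the genes for new methylation, Dnmt3l (chr10:78041947-78063622, plus strand), the cofactor without catalytic activity, gave 168.4 and 155.9 CPM in ES and 3.87 and 1.01 in HB. The HE1 libraries held 0.715 and 9.88 CPM, which were 17 and 299 counts. Those of HE2 held 0.305 and 0.19 CPM and those of HP 0.411 and 0.0, which were 18 and 0 counts. The ES libraries stood far above all others, and the second HE1 library was the highest of the 8 later ones. Dnmt3l fell by 6.07 ± 0.847 on the log2 scale from ES to HB (adjusted p = 0.000736). The log2 fold change was -7.29 without the first HB library and -5.38 without the second, and both passed (adjusted p = 0.00399 and 0.0108). From ES to HP it fell by 9.42 ± 1.34 (adjusted p = 0.00011). The size of this last fall rests on few counts, since a count of 0 in the second HP library allows up to 0.0954 CPM. Without that library the log2 fold change was -8.61 (adjusted p = 0.00147), and without the first HP library, which leaves HP at 0 counts, no size can be given.

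Dnmt3l also passed as lower in HE2 than in HE1, with a log2 fold change of -4.42 ± 1.41 (adjusted p = 0.0395), and as lower in HP than in those HE1 libraries, with -4.52 ± 1.37 (adjusted p = 0.0194). Without the second HE1 library the log2 fold changes were -1.51 (adjusted p = 0.512) and -1.60 (adjusted p = 0.446). The ES markers Pou5f1, Nanog, Sox2, Esrrb and Zfp42 were also higher in the second HE1 library than in the first, at 26.3, 11.6, 9.28, 8.65 and 11.2 CPM against 2.82, 0.715, 0.715, 1.09 and 0.967, while Klf4 was lower, at 26.8 against 39.8. The part of these markers in the Dnmt3l calls was not tested. The calls from HE1 to HE2 were also lost without either HE2 library (adjusted p = 0.075 without the first and 0.261 without the second), and those from HE1 to HP without either HP library (adjusted p = 0.0583 and 0.0799).

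Dnmt3b (chr2:153649450-153687730, plus strand), the main enzyme of new methylation in the early embryo, gave 271.8 and 267.8 CPM in ES, 210.4 and 181.8 in HB, and only 63.2 and 74.2 in HE1. It then gave 127.0 and 322.5 CPM in HE2 and 285.8 and 219.0 in HP. Both HE1 libraries lay below the other 8, and the HE2 libraries spanned a wider range than those of any other stage, with the HP libraries inside it. The log2 fold change was -1.51 ± 0.334 (adjusted p = 0.00771) from HB to HE1 and 1.71 ± 0.334 (adjusted p = 0.0156) from HE1 to HE2. From HE1 to HP, with the same HE1 libraries, it was 1.88 ± 0.334 (adjusted p = 0.00362). The difference between ES and HB, -0.46 ± 0.332, did not pass (adjusted p = 0.306), nor did that between ES and HP, -0.10 ± 0.332 (adjusted p = 0.831). From ES to HB it passed with only the 4 libraries compared (-0.43, adjusted p = 0.00537) and without the second HE2 library (-0.46, adjusted p = 0.0496).

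The rise from HE1 to HE2 was set in size by the second HE2 library: without it the log2 fold change of Dnmt3b was 0.90 (adjusted p = 0.0538), and the same fit gave 0.99 from HE2 to HP (adjusted p = 0.0399). Without the second HE1 library the adjusted p from HE1 to HE2 was 0.0716. The call from HE1 to HP held with any single library left out.

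Dnmt3a (chr12:3806007-3914443, plus strand), whose product is the main enzyme of new methylation in adult blood stem cells, varied least among the DNMT3 genes. The ES libraries held 157.5 and 158.2 CPM, those of HB 180.3 and 201.2, and those of HE1 162.0 and 154.8. Later it stood at 177.3 and 215.9 CPM in HE2 and at 214.8 and 168.2 in HP. All 10 libraries lay between 154.8 and 215.9 CPM. Its log2 fold changes in the 6 comparisons ran from -0.27 to 0.31 with an SE of 0.161 each, and the lowest adjusted p was 0.175. A fit to the ES and HB libraries alone gave 0.30 with adjusted p = 0.015, and scaling by total counts gave 0.36 from ES to HP with adjusted p = 0.0397.

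Per kb of exon, the sum of the 3 DNMT3 genes was 116.6 ± 3.54 CPM per kb (SD, n = 2) in ES, 50.6 ± 3.75 in HB and 24.8 ± 3.32 in HE1. It came to 55.9 ± 28.7 CPM per kb in HE2 and to 61.0 ± 11.3 in HP. Dnmt3b held 45.3% ± 0.849 and Dnmt3l 46.5% ± 1.13 of it in ES, so that these shares differed by about their spread. From HB on Dnmt3b held the largest mean share per kb, between 54.5% in HE1 and 81.0% in HP. Dnmt3a held 8.14% ± 0.269 in ES and 38.9% ± 6.51 in HE1, where the level of Dnmt3b was lowest. These shares depend on dividing by the exon length, which is 16642 bases for Dnmt3a, 5106 for Dnmt3b and 2988 for Dnmt3l. Without that division, Dnmt3a made up 26.8% of the summed CPM in ES and 68.2% in HE1, where Dnmt3b made up 29.6%, and Dnmt3a and Dnmt3b made up 49.0% and 50.3% in HB and 49.2% and 50.8% in HE2.

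The windows of Dnmt3b and Dnmt3l are shown as examples rich and poor in CpG. A link between CpG content and the changes in level was not tested. They lie at chr2:153649199-153649498 and at chr10:78042037-78042336, both on the plus strand, and capitals again mark CpG. For Dnmt3l, which has 3 windows, the one with the most CpG is given. Its start site, at 78042287, lies inside the gene span of the count annotation, which begins at 78041947.
Dnmt3b: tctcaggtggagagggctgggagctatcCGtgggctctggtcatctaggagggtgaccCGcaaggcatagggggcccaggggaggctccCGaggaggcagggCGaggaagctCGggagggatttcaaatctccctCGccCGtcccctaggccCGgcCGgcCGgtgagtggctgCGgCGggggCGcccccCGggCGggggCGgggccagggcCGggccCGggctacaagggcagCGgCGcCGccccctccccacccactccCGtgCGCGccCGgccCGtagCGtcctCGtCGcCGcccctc
Dnmt3l: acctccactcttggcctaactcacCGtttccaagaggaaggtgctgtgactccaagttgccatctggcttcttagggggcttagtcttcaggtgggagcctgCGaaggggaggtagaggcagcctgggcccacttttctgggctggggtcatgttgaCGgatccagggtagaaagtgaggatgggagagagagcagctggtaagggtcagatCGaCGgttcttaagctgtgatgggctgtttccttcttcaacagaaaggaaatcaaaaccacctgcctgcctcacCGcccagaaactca
The Dnmt3b window held 30 CpG, more than in 88.3% of all windows. That of Dnmt3l held 6, and its other windows 4 and 3, all under the median of 7. The richest window of Dnmt3a held 47 CpG and that of Tdg 26.

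Of the maintenance pair, Dnmt1 (chr9:20907209-20959888, minus strand) gave 455.2 and 455.1 CPM in ES, 387.2 and 410.5 in HB and 402.9 and 299.7 in HE1. It gave 473.8 and 657.7 CPM in HE2 and 602.8 and 538.8 in HP. The HE2 and HP libraries lay above all HB and HE1 libraries, and HB and HE1 overlapped. Dnmt1 rose by 0.69 ± 0.197 on the log2 scale from HE1 to HE2 (adjusted p = 0.0467) and by 0.70 ± 0.197 from HE1 to HP (adjusted p = 0.0272). From ES to HB and from HB to HE1 the log2 fold changes were -0.19 ± 0.197 and -0.18 ± 0.197, and neither passed (adjusted p = 0.481 and 0.499).

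The call of Dnmt1 from HE1 to HE2 held without the first HE1 library and without the first HE2 library, and was lost with any of the other 8 left out (adjusted p = 0.0577 to 0.349). The call from HE1 to HP was lost without the second HE1 library (adjusted p = 0.14), the first HP library (0.155) or the second HP library (0.0539), and with only the 4 libraries compared (0.65 on the log2 scale, adjusted p = 0.0839).

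Uhrf1 (chr17:56303321-56323486, plus strand), which encodes the reader of hemimethylated DNA that recruits DNMT1, gave 504.1 and 501.4 CPM in ES, 396.1 and 411.0 in HB, and 270.8 and 221.4 in HE1. In HE2 it gave 358.1 and 555.9 CPM, and in HP 534.1 and 438.3. The HE1 libraries were the lowest of the 10, and HE2 and HP overlapped. Uhrf1 fell by 0.71 ± 0.211 on the log2 scale from HB to HE1 (adjusted p = 0.0269). It rose by 0.89 ± 0.211 from HE1 to HE2 (adjusted p = 0.0272) and by 0.98 ± 0.211 from HE1 to HP (adjusted p = 0.00837). Its log2 fold change from ES to HP was -0.05 ± 0.211 (adjusted p = 0.869).

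The fall of Uhrf1 lost its call without the first or second HB library (adjusted p = 0.0645 and 0.105) or the second HE1 library (0.127). The rise to HE2 lost it without the second HE1 library (0.135) or the second HE2 library (0.234), and the rise to HP without the second HE1 library (0.0549) or the first HP library (0.0737). In each of these fits the direction was the same.

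Genes of S phase, when maintenance methylation takes place, moved at the same steps as Uhrf1, while Dnmt1 did not pass from HB to HE1. Of 17 such genes, 13 fell and 0 rose from HB to HE1, 9 rose and 0 fell from HE1 to HE2, and 14 rose and 0 fell from HE1 to HP. Of all tested genes, 14.8% fell and 17.5% rose at the first of these steps, 6.12% rose and 7.12% fell at the second, and 11.0% rose and 13.9% fell in the third comparison. The median log2 fold changes of the 17 genes were -0.66, 0.62 and 0.76, against medians over all tested genes of 0.035, -0.075 and -0.024. These counts depended on single libraries. The 13 became 5 without the second HB or the second HE1 library, the 9 became 0 without the second HE1 or the second HE2 library and 15 without the first HE2 library, and the 14 became 2 without the second HE1 library and 1 without the first HP library. The 9 also became 1 without any single ES or HB library and 5 without either HP library. Mcm7, a subunit of the replicative helicase, gave 394.8 and 412.2 CPM in HB, 192.3 and 151.6 in HE1, and 237.7 and 339.4 in HE2. Relative to the mean of ES, the median of the 17 genes on the log2 scale was -0.69 and -1.07 in the HE1 libraries, -0.45 and -0.02 in those of HE2, and -0.07 and -0.27 in those of HP. Uhrf1 stood at -0.89 and -1.18, at -0.49 and 0.15, and at 0.09 and -0.20 in the same libraries, and Dnmt3b at -2.09 and -1.86, at -1.09 and 0.26, and at 0.08 and -0.30. Dnmt1 stood at -0.18 and -0.60, at 0.06 and 0.53, and at 0.41 and 0.24, above the S-phase median in each of them. In HB, Dnmt3b stood at -0.36 and -0.57 and the S-phase median at -0.15 and -0.09. Within HE2 the second library was the higher for Dnmt1, Uhrf1, Dnmt3b and the S-phase median, and within HP the first. Within HB and within HE1, by contrast, the library with the higher Dnmt3b had the lower S-phase median. The part of the S-phase genes in the changes of Dnmt1, Uhrf1 and Dnmt3b was not tested.

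**Figure D3:**
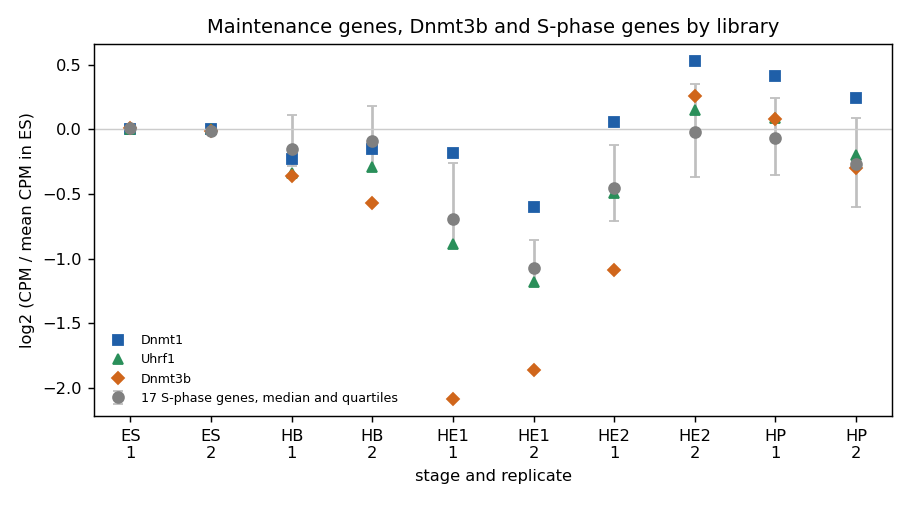
Levels of Dnmt1, Uhrf1, Dnmt3b and the 17 S-phase genes (median, bars from the first to the third quartile) in each of the 10 libraries, as log2 of CPM over the mean CPM of the ES libraries. All 4 were lower in the HE1 libraries than in those of HP, and Dnmt3b reached -2.09 where the S-phase median reached -0.69.

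E2F factors are known regulators of S-phase genes, and the RefSeq windows of the 9 genes were searched for E2F spellings on both strands, namely TTTCCCGC, TTTGGCGC, TTTCGCGC and TTTGCCGC. Of all 32851 windows, 2.26% held at least 1. Each spelling contains a CpG, and the windows of Dnmt1 and Uhrf1 with matches held 33 CpG each, against a median of 7. The share of 2.26% is therefore not a like background for them, and that of windows equally rich in CpG was not computed. In the richest window in CpG of each gene, that of Dnmt1 (chr9:20952574-20952873) held 2, with first bases at 34 and at -219 from the start site, and that of Uhrf1 (chr17:56304063-56304362) held 1, at -185. The start sites of these windows lie inside both genes, downstream of other RefSeq starts, whose windows held none. The windows of the other 7 genes held none of these letters. Of 4 further spellings, TGTGGTT (RUNX), CCGGAAG (ETS) and ATGCAAAT (OCT) matched in no window of the 9 genes, against 5.27%, 8.86% and 1.74% of all windows. CCAAT (NF-Y) matched in windows of Dnmt1, Uhrf1, Tet3 and Tdg and in 37.4% of all windows, and 2 of the matches in the window of Dnmt1 overlapped.

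Tdg (chr10:82629828-82650799, plus strand), the glycosylase that removes formylated and carboxylated cytosine, gave 42.4 and 42.6 CPM in HB. It gave 30.3 and 28.1 CPM in ES and 27.4 and 29.3 in HE1, and the libraries of HE2 held 29.1 and 30.3 and those of HP 27.9 and 31.0. The HB libraries lay above the other 8, which overlapped from stage to stage. Tdg rose by 0.54 ± 0.141 on the log2 scale from ES to HB (adjusted p = 0.011) and fell by 0.58 ± 0.141 from HB to HE1 (adjusted p = 0.011), and both comparisons use the same HB libraries. The rise lost its call without either ES library (adjusted p = 0.0732 and 0.136) or either HB library (0.0567 and 0.0731), with a log2 fold change between 0.50 and 0.61. The fall lost it without the second HB library (0.0638). In the remaining 4 comparisons its log2 fold change lay between -0.01 and 0.07.

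**Figure D4:**
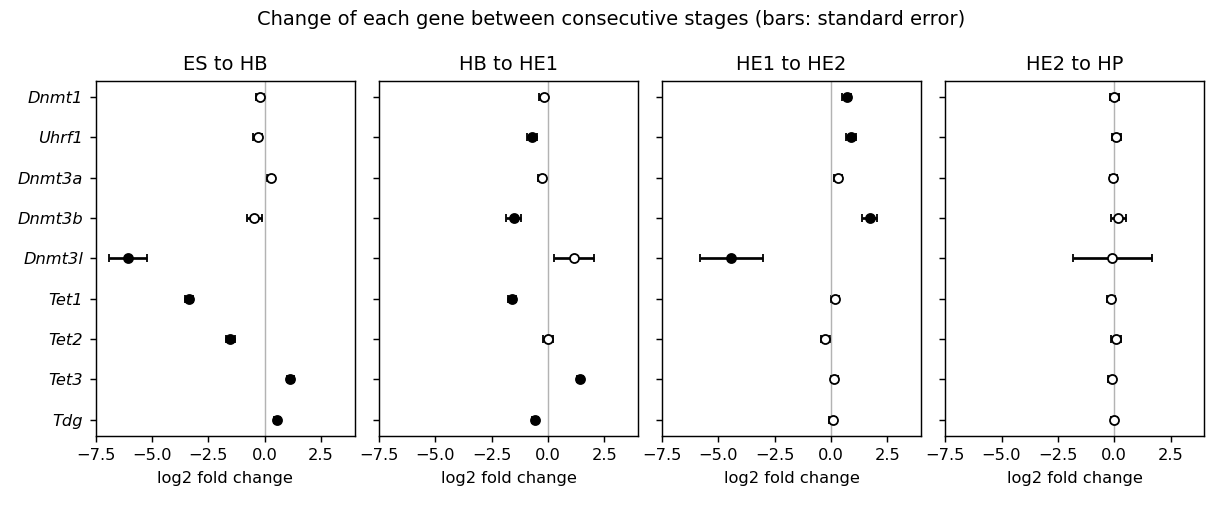
Log2 fold change of each of the 9 genes at the 4 steps between consecutive stages, later over earlier stage, with bars of 1 SE and filled points where the adjusted p was under 0.05. The widest bars are those of Dnmt3l, and no point is filled in the step from HE2 to HP.

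Counted by comparison, 2 of the 9 genes rose and 3 fell from ES to HB, where 17.8% of all tested genes rose and 22.6% fell. From HB to HE1, 1 rose and 4 fell, against 17.5% and 14.8% of all genes. From HE1 to HE2, 3 rose and 1 fell, against 6.12% and 7.12%. From HE1 to HP, 3 rose and 1 fell, against 11.0% and 13.9%, and from ES to HP 1 rose and 3 fell, against 24.1% and 27.5%. From HE2 to HP none of the 9 passed, and edgeR called 0.0% of all genes in either direction. In that comparison an unadjusted p under 0.05 was found for 670 genes with higher and 1113 with lower values, limma-voom called 39 and 27 genes, and DESeq2 called 154 and 311. The edgeR fit itself called 56 and 575 genes without the second HE2 library, 27 and 46 without the first HE1 library and 26 and 38 without the second. For the 9 genes the log2 fold changes from HE2 to HP lay between -0.14 and 0.17, with SE from 0.141 to 0.332 and 1.76 for Dnmt3l.

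Of 17 partners of the writers, 2 rose and 7 fell from ES to HB (median log2 fold change -0.35) and 0 rose and 8 fell from HB to HE1 (median -0.45). From HE1 to HE2, 3 rose and 0 fell (median 0.26), from HE1 to HP 5 rose and 2 fell (median 0.26), and from ES to HP 1 rose and 7 fell (median -0.44). The shares of all tested genes were those given above, for example 17.8% higher and 22.6% lower from ES to HB. The 8 became 5 without either HB library or the second HE1 library. The 3 became 0 without the second HE1 or the second HE2 library, 1 without any single ES or HB library, 5 without the first HE1 library and 6 without the first HE2 library. The 5 became 1 without the second HE1 or the first HP library, and the 2 that fell from HE1 to HP became 0 without the first HP library and 1 without the second HP or the second HE1 library. The 1 that rose from ES to HP became 2 without either HE1 library. The medians over all tested genes were 0.0, 0.035, -0.075, -0.024 and -0.007. Hells, a chromatin remodeller needed for normal methylation, gave 488.7 and 481.8 CPM in ES, 215.8 and 207.9 in HB and 119.0 and 119.8 in HE1, and fell at both steps (adjusted p = 0.0003 and 0.00445). Uhrf2, the paralogue of Uhrf1, rose by 1.25 ± 0.13 on the log2 scale from ES to HB (adjusted p = 4.59e-05), from 84.9 and 83.3 to 198.5 and 202.2 CPM. Zfp57, which keeps methylation at imprinted regions, fell by 3.81 ± 0.398 from ES to HP (adjusted p = 5.23e-05).

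Of 10 partners of the TET enzymes and enzymes of their cofactors, 2 rose and 5 fell from ES to HB, 0 rose and 5 fell from HB to HE1, 1 rose and 0 fell from HE1 to HE2, and 3 rose and 5 fell from ES to HP. Of all tested genes, 17.8% rose and 22.6% fell from ES to HB and 24.1% rose and 27.5% fell from ES to HP, so that the numbers that rose in these comparisons were near the background. The shares were 17.5% and 14.8% from HB to HE1 and 6.12% and 7.12% from HE1 to HE2, where 1 of 10 is near the background too. The median log2 fold changes of the 10 were -0.08, -0.48, 0.20 and -0.20. The 5 that fell from ES to HB became 1 without the first ES library and 2 without the second ES library or either HB library, and the 2 that rose became 1 without either ES library or the second HB library and 5 with only the 4 libraries compared. The 5 that fell from HB to HE1 became 2 without either HB library and 1 without the second HE1 library. From HE1 to HE2 the 1 became 0 without the second HE1 or the second HE2 library and 3 without the first of either, and 1 gene fell without the first HE2 library or either HP library. From ES to HP the 3 became 1 without the first HP library and the 5 became 3 without the first ES library. Ogt, whose product binds TET proteins and attaches a sugar to them, gave 653.7 and 672.4 CPM in ES, 433.7 and 333.2 in HB and 244.3 and 179.4 in HE1. It fell at both steps (adjusted p = 0.0136 and 0.013). Prdm14, a pluripotency regulator known for repressing Dnmt3b and Dnmt3l, gave 21.3 and 20.7 CPM in ES and 2.48 and 2.85 in HB (log2 fold change -2.98 ± 0.382, adjusted p = 0.000245). Cxxc4, whose product binds TET2, rose by 3.30 ± 0.369 on the log2 scale from ES to HB (adjusted p = 9.64e-05), from 1.12 and 1.66 to 12.7 and 14.5 CPM.

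Of 10 genes of the MBD family and of the zinc finger proteins that bind methylated CpG, 6 rose and 1 fell from ES to HP, with a median log2 fold change of 0.67, where 24.1% of all tested genes rose and 27.5% fell. At the steps between, 2 rose and 1 fell from ES to HB (median 0.23), 4 rose and 0 fell from HB to HE1 (median 0.34) and 1 rose and 1 fell from HE1 to HE2 (median -0.07). The 2 became 1 without either ES library or the second HB library, the 4 became 2 without either HB library, and the counts from HE1 to HE2 became 0 without the second HE1 or the second HE2 library, with 2 that rose without the first of either. The 2 that rose from ES to HB were near the background of 17.8%. Of all tested genes, 17.5% rose and 14.8% fell from HB to HE1, and 6.12% rose and 7.12% fell from HE1 to HE2, so that 1 of 10 in either direction at the latter step is near the background. The proteins of Mbd3, Mbd5 and Mbd6 are known for not binding methylated CpG as the others do, and Mbd5 and Mbd6 are among the 6 that rose from ES to HP. Mbd2, a reader of the NuRD complex, gave 14.7 and 16.0 CPM in ES and 55.5 and 49.4 in HP, a rise of 1.78 ± 0.149 on the log2 scale (adjusted p = 7.14e-06). Zbtb38 fell from 70.9 and 77.1 CPM in ES to 21.2 and 19.3 in HB (log2 fold change -1.87 ± 0.133, adjusted p = 4.71e-06) and rose to 57.7 and 54.8 in HE1 (1.47 ± 0.133, adjusted p = 4.8e-05).

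Of 11 genes of base excision repair, which acts after TDG, 1 rose and 2 fell from ES to HB, 0 rose and 3 fell from HB to HE1, 2 rose and 1 fell from HE1 to HE2 and 2 rose and 5 fell from ES to HP, with medians of -0.09, -0.23, 0.39 and -0.28. From ES to HB these counts were near or under the background, as 17.8% of all tested genes rose and 22.6% fell. Of all tested genes, 17.5% rose and 14.8% fell from HB to HE1, 6.12% rose and 7.12% fell from HE1 to HE2, and 24.1% rose and 27.5% fell from ES to HP. The 2 that fell from ES to HB became 0 without the first HB library and 1 without either ES library or the second HB library, and the 3 from HB to HE1 became 1 without the second HB or the second HE1 library. The counts from HE1 to HE2 became 0 without the second HE1 or the second HE2 library, and the 2 that rose became 5 without the first HE2 library. From ES to HP the 5 that fell became 2 without either ES library or the second HP library, and the 2 that rose became 1 without any single ES or HP library. Neil3, a glycosylase of oxidised bases, rose from 16.2 and 15.3 CPM in ES to 60.5 and 62.4 in HP (log2 fold change 1.96 ± 0.155, adjusted p = 4.96e-06). Ung, the uracil glycosylase, gave 105.6 and 105.4 CPM in ES and 48.1 and 36.5 in HP (log2 fold change -1.32 ± 0.251, adjusted p = 0.00151).

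S-adenosylmethionine is the methyl donor of the DNMT enzymes, and 10 of 11 genes of its synthesis and of the one-carbon cycle could be tested. From ES to HB 2 rose and 4 fell, from HB to HE1 0 rose and 3 fell, from HE1 to HE2 4 rose and 1 fell, and from ES to HP 1 rose and 4 fell, with medians of -0.19, -0.27, 0.44 and -0.33. From ES to HB the 2 that rose were near the background of 17.8%, and 22.6% of all tested genes fell. The shares that rose and fell were 17.5% and 14.8% from HB to HE1, 6.12% and 7.12% from HE1 to HE2, and 24.1% and 27.5% from ES to HP. The 2 that rose from ES to HB became 0 without the first ES library and 1 without the second ES or the first HB library, and the 4 that fell became 1 without the first ES library and 2 without the second ES or the second HB library. The counts from HE1 to HE2 became 0 without the second HE1 or the second HE2 library, and the 4 that rose became 1 without either ES library and 2 without either HB library. The 4 that fell from ES to HP became 1 without any single ES or HP library and 2 without either HB library, and the 1 that rose became 2 without either HE1 library. Mat2a, whose product makes S-adenosylmethionine, gave 401.2 and 407.4 CPM in ES and 259.5 and 227.4 in HB (log2 fold change -0.73 ± 0.159, adjusted p = 0.00426). Shmt2, the mitochondrial serine hydroxymethyltransferase, fell by 1.74 ± 0.185 on the log2 scale from HB to HE1 (adjusted p = 0.000133), from 215.5 and 232.9 to 72.4 and 62.2 CPM.

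Germline genes that promoter methylation is known to silence were low after ES. Of 17 such genes 15 could be tested, and 14 fell and 0 rose both from ES to HB and from ES to HP, which share the ES libraries, where 22.6% and 27.5% of all tested genes fell. Most of them entered the test through their level in ES, so these counts describe the list and are not support for a direction. The median log2 fold change was -5.06 from ES to HB and -6.98 from ES to HP, or -4.72 and -5.72 with genes at 0 in both libraries of a stage set to the level of 3 counts. Rpl10l, a testis copy of a ribosomal protein gene, gave 66.7 and 63.5 CPM in ES, 0.595 and 0.113 in HB, 0.126 and 1.98 in HE1, and 0.137 and 0.0636 in HP.

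To place the 9 genes among all others, the genes whose log2 CPM followed each of them most closely over the 10 libraries were found among 12235 genes with at least 9 CPM in a stage. The libraries are pairs from 5 stages of a single line, so r describes the likeness of stage profiles. Tet1 was most like Pura, Terf1 and Ptch1 (r = 0.998, 0.996 and 0.995). Tet3 was most like Nol4l, Parp4 and Nlk (r = 0.997, 0.996 and 0.996). Dnmt3l was most like Utf1, Sox2 and 2410141K09Rik (r = 0.994, 0.99 and 0.988), of which Utf1 and Sox2 are pluripotency genes. Dnmt3b was most like Chaf1a, a subunit of the replication-coupled histone chaperone, Gen1 and Tlcd1 (r = 0.979, 0.977 and 0.972). Uhrf1 was most like Asrgl1, Noa1 and the mitotic checkpoint gene Mad2l1 (r = 0.993, 0.993 and 0.988). Dnmt1 was most like Ncbp1, Nol11 and Fignl1 (r = 0.993, 0.983 and 0.981). Genes most like Tet2 included Gnptg and Atrx (r = 0.99 and 0.986), those most like Dnmt3a were Irf2bp1, Sdhc and Lsm12 (r = 0.978, 0.971 and 0.971), and those most like Tdg were Kdm4b, Per3 and Fstl4 (r = 0.974, 0.969 and 0.966). Spearman's rho for the same pairs was 0.673 to 0.758 for Tdg, 0.794 to 0.988 for Dnmt3b and at least 0.806 for the other genes. Among the 9 genes themselves, r was 0.965 between Uhrf1 and Dnmt3b, 0.922 between Tet1 and Tet2, 0.873 between Dnmt3l and Tet1, and -0.961 between Tet1 and Tet3.

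The exons of 4 of the genes overlap those of a gene on the opposite strand, and reads were counted by strand. Dnmt3l shares 67 exonic bases with Aire, which had 2293 and 1381 counts in ES and 45 or fewer in every later library. Tdg shares 367 bases with Glt8d2, Dnmt3a 133 with Dnmt3aos and Tet2 43 with Gm42567, and none of these 3 partners had more than 16 counts in a library. Copies of Tdg, Dnmt3a and Dnmt3l are annotated as pseudogenes, and Dnmt3c is a rodent relative of Dnmt3b, so how reads were shared among them is uncertain. Tdg-ps had at most 0.39 CPM and Dnmt3c at most 3.14 CPM in any library.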

How the data were processed

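Nuclear RNA-seq of 5 stages was used, with 2 libraries per stage. Per the file headers and the study's methods, the authors trimmed the reads with Trimmomatic, aligned them to mm10 with HISAT2 (2.2.1) and produced raw counts per gene with featureCounts (2.0.1), as read pairs on exons of Ensembl release 102 by strand, with a pair that overlapped several genes counted on each. The authors also deposited a matrix with 1 expression score per stage, made with edgeR (3.40.2), from which the genes were looked up. Its scores were 0.953 to 1.12 times the mean CPM computed here for the 41 stage means of at least 9 CPM, and 0.434 to 1.1 times for the 4 lower ones, those of Dnmt3l after ES.

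Counts were tested with edgeR (4.0.16, R 4.3.3) in a quasi-likelihood fit to all 10 libraries with TMM scaling, after filterByExpr, which kept 22596 genes, and Benjamini-Hochberg adjustment. The common biological coefficient of variation was 0.226 with 5 residual degrees of freedom. Standard errors of log2 fold changes were computed from the weights of that fit. Alternatives were limma-voom (3.58.1), DESeq2 (1.42.0), total counts, no filter, the matrix genes, the 4 libraries compared, a replicate block, a change of at least 2-fold, and each library left out. The scripts were tested on simulated counts with that common variation, in the comparison of ES with HB. There edgeR found 23% of 100 genes changed by 1 on the log2 scale and 100% of 100 changed by 2. A change of 2-fold or less can therefore go uncalled. Likeness used log2 CPM with a prior count of 2. The genes, lists, tests and markers were chosen with earlier results of these data known. The lists are not separate, since Mbd4 is counted both with the methyl-CpG binding genes and in base excision repair. Pcna is counted both with the partners of the writers and with the S-phase genes. All 9 genes are named in every comparison, list genes are drawn from the 4 largest changes that passed in a comparison, and 3 genes are named as most like each gene, except that 1 of those of Tet2 is not reported here. Of 55487 genes, 39019 had a count. Depth ranged from 24920434 to 58782055 counts per library and sets counting error only. The enhancer reporter data of the series were not used here.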

Additional observations from a re-analysis of the deposited data

How the results depend on the processing

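The calls of Tet1, Tet2, Tet3 and Dnmt3l from ES to HB and from ES to HP, and of Tet1 and Tet3 from HB to HE1, kept their direction and passed in every alternative run. So did those of Dnmt3b from HB to HE1 and from HE1 to HP. The other 10 calls of the 9 genes were each lost with at least 1 library left out, which leaves a stage with 1 library assumed to vary like the other stages. Dnmt3l after ES and most germline genes had few counts, which limits the size that can be given for their changes.

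Of the 9 genes, the number higher in HB than in ES was 2 and became 1 with a change of at least 2-fold. With only the 4 libraries compared, Dnmt3a was added at a log2 fold change of 0.30. The call of Tdg was lost with some libraries left out, as given above. The number lower in HB than in ES was 3 and became 5 with only the 4 libraries compared. The number higher in HE1 than in HB was 1 and became 2 with no filter on low counts, which added Dnmt3l. Its HE1 libraries held 17 and 299 counts, and its log2 fold change was 1.17 in that fit, 2.0 without HE1 replicate 1 and -1.74 without HE1 replicate 2. The fit with no filter gave far smaller adjusted p in edgeR's test, for example 4.62e-109 against 0.000736 for Dnmt3l from ES to HB. Its calls were therefore not relied on. The number lower in HE1 was 4 and became 2 with a change of at least 2-fold, and 2 to 4 with a library left out. The number higher in HE2 than in HE1 was 3 and became 0 with only the 4 libraries compared and 1 with at least 2-fold, and 0 to 3 with a library left out, being 0 without HE1 replicate 2 or HE2 replicate 2. The number lower in HE2 was 1, the gene Dnmt3l, and became 0 with limma-voom, with total counts, on the matrix genes, with only the 4 libraries compared and with the replicate block, and 0 to 1 with a library left out. The number higher in HP than in HE2 was 0 and became 0 to 1 with a library left out, the 1 being Dnmt3b without HE2 replicate 2. The number higher in HP than in HE1 was 3 and became 1 with at least 2-fold, and 1 to 3 with a library left out. The number lower in HP than in HE1 was 1 and became 0 with limma-voom and on the matrix genes, and 0 to 1 with a library left out. The number higher in HP than in ES was 1 and became 3 with total counts, which added Dnmt1 and Dnmt3a, and 2 with only the 4 libraries compared, which added Dnmt1. Where not shown by fewer libraries or a stricter threshold, the cause was not tested.

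Some log2 fold changes that did not pass in the reported fit changed sign. With a library left out, they ranged from -0.46 to 0.02 for Dnmt1 from HB to HE1 and from -0.21 to 0.27 from HE2 to HP. Uhrf1 ranged from -0.20 to 0.44 from HE2 to HP and from -0.20 to 0.09 from ES to HP. Dnmt3a ranged from -0.23 to 0.13 from HE2 to HP, and Dnmt3b from -0.36 to 0.99 from HE2 to HP and from -0.30 to 0.08 from ES to HP. Dnmt3l ranged from -1.74 to 2.35 from HB to HE1 and from -6.11 to 0.72 from HE2 to HP. The -6.11 is from the fit without HP replicate 1, which leaves HP at 0 counts of Dnmt3l. It is therefore not a size that can be given for a change. Tet1 ranged from -0.07 to 0.43 from HE1 to HE2, from -0.36 to 0.13 from HE2 to HP and from -0.05 to 0.17 from HE1 to HP. Tet2 ranged from -0.33 to 0.24 from HB to HE1, from -0.49 to 0.06 from HE1 to HE2, from -0.22 to 0.31 from HE2 to HP and from -0.46 to 0.13 from HE1 to HP. Tet3 ranged from -0.02 to 0.37 from HE1 to HE2 and from -0.14 to 0.25 from HE1 to HP. Tdg ranged from -0.09 to 0.06 from HE2 to HP, from -0.00 to 0.14 from HE1 to HP and from -0.06 to 0.08 from ES to HP. With total counts, Uhrf1 was 0.03 from ES to HP, Dnmt3a 0.02 from HE2 to HP, Tet1 -0.00 from HE1 to HP, Tet2 0.01 from HB to HE1, and Tdg -0.04 from HE1 to HE2 and 0.05 from HE2 to HP. On the matrix genes, Tet1 was -0.00 from HE1 to HP, Tet2 0.01 from HB to HE1, Tet3 -0.00 from HE1 to HP, and Tdg -0.02 from HE1 to HE2, 0.01 from HE2 to HP and -0.01 from HE1 to HP. With only the 4 libraries compared, Tet1 was -0.01 from HE1 to HP, Tet2 0.01 from HB to HE1 and Tet3 -0.01 from HE1 to HP. With DESeq2, Tdg was -0.01 from ES to HP.

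The calls over all tested genes from HE1 to HE2 were 1384 higher and 1608 lower. These became 372 and 172 with only the 4 libraries compared, 390 and 344 without HE1 replicate 2, 337 and 138 without HE2 replicate 2, but 2790 and 3282 without HE1 replicate 1 and 2214 and 2499 without HE2 replicate 1, and 2106 and 2517 with DESeq2, and 2436 and 3625 with no filter. From HE1 to HP, 2495 were higher and 3142 lower, and without HP replicate 1 937 and 1261. From HE2 to HP, 0 passed in either direction, against 154 and 311 with DESeq2, 210 and 636 with no filter, 56 and 575 without HE2 replicate 2, and 27 and 46 without HE1 replicate 1. From HB to HE1, 3945 and 3355 became 1741 and 1711 without HB replicate 2. From ES to HB, 4020 higher became 6172 with only the 4 libraries compared and 2288 without ES replicate 2, and 5102 lower became 3196 without HB replicate 2. Of the counts of the 7 gene lists under all alternatives, 281 moved by over 1.5 times or to or from 0, and 1231 did not. From ES to HP, 5447 higher became 3582 without ES replicate 1.

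The replicate numbers were not found to pair the libraries: correlations of replicate differences between stages ran from -0.316 to 0.213. With the replicate block, 912 genes were higher and 987 lower in HE2 than in HE1, and the adjusted p there was 0.0734 for Dnmt1 and 0.0562 for Dnmt3l. The block changed no other call of the 9 genes.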
